A study of Rattus norvegicus with 98 samples.

Results

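The septum is a midline structure of the basal forebrain, and in this series its lateral part (LS) and its medial part (MS) were punched separately from frozen sections of male Long-Evans rat brains. The 8 libraries described here are all 4 LS and all 4 MS libraries, chosen by their region label, out of 94 libraries with a peak list from 25 brain regions. LS and MS each had 2 libraries from rats given water (Sham, called untreated in the labels) and 2 from rats given fluoxetine (FT) at 18 mg/kg body weight for 6 weeks from 2 months of age. Fluoxetine is a selective serotonin reuptake inhibitor. Each library was made from tissue pooled over several animals, so animals within a pool cannot be told apart, and p-values measure the spread between pooled libraries. By the study's methods the LS and MS punches of a treatment came from the same animals, and the tests of 4 LS against 4 MS libraries take them as independent unless a replicate block is named.

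Every library was a chromatin immunoprecipitation of histone H3 acetylated at lysine 27 (H3K27ac), a mark that histone acetyltransferases place on the nucleosomes flanking active promoters and enhancers. Enhancer acetylation differs more between cell types than promoter acetylation does, so neighbouring nuclei with different neurons can be compared by it. The LS is built mainly of GABAergic projection neurons that receive hippocampal input and project to the hypothalamus and midbrain, whereas the MS holds the cholinergic, GABAergic and glutamatergic neurons that project to the hippocampus and pace its theta rhythm. In bulk tissue, fewer cells of a type and less acetylation per cell cannot be told apart. The labels LS and MS could not be checked against marker genes of these neurons, because the lists are in the coordinates of the Rn5 rat genome and no annotation of that build was used here. Loci are therefore given by position and without gene names.

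The depth of the libraries is unknown. Over the 8 libraries the deposited lists held 310767 peaks, and 3 lists stood apart as short. Sham LS replicate 2 had 26223 peaks, Sham MS replicate 1 had 27508 and Sham MS replicate 2 had 27292. The other 5 lists held 43341 (Sham LS replicate 1), 46319 and 46482 (FT LS), and 47277 and 46325 peaks (FT MS). In the 3 short lists 0.374% to 0.662% of the peaks reached the upper limit of 200 that the −log10 p-value can take, against 4.02% to 4.49% in the 5 long ones. Short and long lists therefore divided the Sham LS pair, and both Sham MS libraries were on the short side. All comparisons below used lists cut to the 26223 best-scoring peaks of each library unless full lists are named. Several results that rest on the short lists are also given without them.

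Whether one septal region carried broader acetylation than the other was asked first, and the 4 LS and 4 MS libraries overlapped in every such measure. The median peak width was 1900 and 1400 bp in Sham LS, 2000 and 2000 bp in FT LS, 1500 and 1400 bp in Sham MS, and 2100 and 2000 bp in FT MS. The LS mean of 1825 ± 287 bp (SD, n = 4) was higher than the MS mean of 1750 ± 351 bp (SD, n = 4) by 0.07 on the log2 scale (exact permutation test over 70 assignments, two-sided, p = 1). The narrowest libraries were the 3 Sham libraries with short lists, and both FT groups were wider than both Sham groups. Over the same 8 libraries, FT exceeded Sham by 0.40 on the log2 scale (exact permutation test, two-sided, p = 0.0286, the smallest that 4 against 4 can give). Without the 3 short lists, on lists cut to 43341 peaks, the single remaining Sham library had a median width of 1500 bp and the 4 FT libraries 1700 to 1800 bp, a log2 difference of 0.20 with no test. Short lists and Sham treatment cannot be told apart in the MS, where both Sham lists were short.

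The number of 1 kb windows covered to at least 50% by peaks showed the same arrangement. Sham LS occupied 50091 and 37172 windows, FT LS 53168 and 52816, Sham MS 39491 and 37285, and FT MS 54790 and 52763. The LS and MS means were 48312 ± 7553 and 46082 ± 8968 windows (SD, n = 4 each), a log2 difference of 0.07 (exact permutation test, p = 0.914). Peaks of at least 3 kb, a class that includes clustered enhancers, numbered 560 and 186 in Sham LS, 754 and 751 in FT LS, 245 and 194 in Sham MS, and 897 and 765 in FT MS. Their log2 difference was 0.21 (exact permutation test, p = 1), and that of the full list lengths was 0.14 (exact permutation test, p = 0.971). All 4 tests had an adjusted p of 1 by the Benjamini-Hochberg method over the exact permutation tests.

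Split by treatment, LS was above MS in Sham and slightly below it in FT in all 4 measures. For the width the log2 difference was 0.17 in Sham and -0.04 in FT, and for peaks of at least 3 kb it was 0.57 in Sham and -0.14 in FT. With 2 libraries against 2 no test was made within a treatment. The Sham differences rest on Sham LS replicate 1, the only long list among the 4 Sham libraries. Without the 3 short lists the direction over the remaining libraries turned in every measure, to -0.10 for the width, -0.06 for the windows, -0.29 for peaks of at least 3 kb and -0.05 for the list length. No Sham MS library remains in that comparison, so region and treatment cannot be told apart in it. The lone Sham library, an LS one, was the lowest in every measure, with 568 peaks of at least 3 kb against 759 to 928 in FT.

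**Figure D1:**
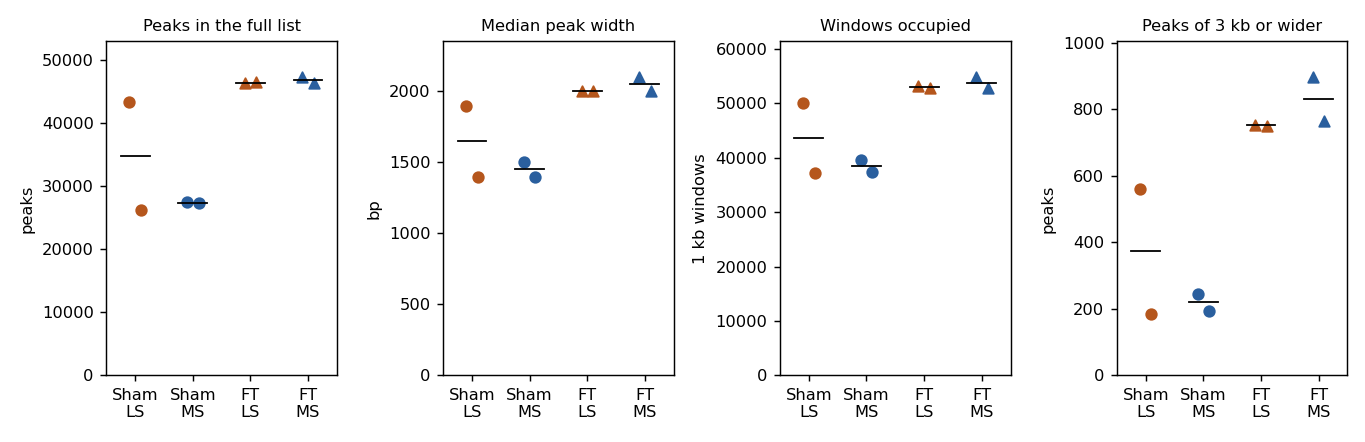
Values of the 8 libraries by region and treatment: peaks in the full list, and, on lists cut to 26223 peaks, the median peak width (bp), the number of 1 kb windows occupied and the number of peaks of 3 kb or wider. Each point is 1 library and the black line is the mean of the pair; FT LS and FT MS lie side by side in every panel, and Sham LS replicate 1 lies apart from the other 3 Sham libraries.

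Whether the libraries grouped by region was asked with the Jaccard index, in which the windows that 2 libraries have in common are divided by all windows that at least one of them has. Pairs from the same region had a mean index of 0.629 and LS with MS pairs 0.624, a difference of 0.00521 (exact test over the 35 ways to split 8 libraries 4 against 4, one-sided, p = 0.171). The split by treatment gave a larger difference, 0.0693, which was the largest of the 35 (exact test, one-sided, p = 0.0286). The 2 sets of the region split held unlike shares of pairs across treatments, which had lower indices. Within a treatment, same-region pairs had a mean of 0.680, and LS with MS pairs 0.662 when like-numbered and 0.654 when not. Across treatments the means were 0.603 and 0.589, and no test was made of these. Among the 5 long lists alone, Sham LS replicate 1 had an index of 0.665 to 0.708 with the FT libraries, and the FT libraries had 0.683 to 0.736 with each other, so the ranges overlapped. Within FT the regions separated without overlap: the FT LS pair had an index of 0.779 and the FT MS pair 0.773, and the 4 LS with MS pairs reached at most 0.756. Within Sham they did not, since the Sham LS pair had an index of 0.556 and Sham LS replicate 1 with Sham MS replicate 1 had 0.625.

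Among all 94 libraries, the most similar list to Sham LS replicate 1, to both FT LS and to both FT MS libraries was one of their own region, and this also held for Sham MS replicate 2. Sham LS replicate 1 was closest to FT LS replicate 1 (0.756). Sham LS replicate 2, however, was closest to Sham MS replicate 1 (0.581 against 0.556 for its nearest LS library), and Sham MS replicate 1 was closest to a library of the ventromedial hypothalamus (VMH, 0.639 against 0.612 for Sham MS replicate 2). For the 5 long lists the nearest library outside the septum was Sham replicate 1 of the lateral hypothalamus (LH), a target of septal projections, at 0.665 to 0.725.

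The windows that separate the regions were then counted by a strict rule, 4 of 4 libraries of one region and 0 of 4 of the other. Of 78889 windows occupied in at least 1 of the 8 libraries, 23121 (29.3%) were occupied in all 8. The rule was met by 231 windows in the LS direction, 0.293% of those tested, and by 77 windows in the MS direction, 0.0976%. No test was made of these counts, which depend on single libraries: without Sham LS replicate 2 the LS count was 838, and without FT MS replicates 1 or 2 it was 445 or 360. The MS count was 224 without Sham MS replicate 1, 207 without Sham MS replicate 2, 145 without Sham LS replicate 1 and 129 without either FT LS library. The excess of LS over MS windows turned without the 3 short lists, a comparison chosen after the data were seen. In it, 1348 windows were occupied in all 3 remaining LS and neither remaining MS library, and 2507 in both MS and none of the 3 LS libraries. These rules are unlike, with 3 libraries present and 2 absent for LS and the reverse for MS, so the counts alone give no regional direction.

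Within Sham, 2804 windows (4.37%) were occupied in both LS and neither MS library, and 934 (1.45%) in both MS and neither LS library. Within FT the directions were nearly balanced, at 2064 LS windows (3.03%) and 2164 MS windows (3.18%). A window that separated the regions in one treatment mostly did not do so in the other, and where it did, the same direction was more frequent than the opposite one. Of the 2064 FT LS windows, 231 (11.2%) met the rule in the same direction in Sham and 15 (0.727%) in the opposite one. Of the 2164 FT MS windows, 77 (3.56%) met it in the same direction in Sham and 35 (1.62%) in the opposite one.

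A softer reading asks towards which region the other treatment leaned, by the larger number of occupying libraries. FT LS windows leaned to LS in Sham in 990 cases, to MS in 130 and to neither in 944. FT MS windows leaned to MS in Sham in 448 cases and to LS in 423, which is close to even. In that case Sham LS replicate 1 occupied 26.4% of the FT MS windows, Sham LS replicate 2 13.5%, and the Sham MS libraries 21.2% and 21.8%. Sham LS replicate 1 thus held more of the FT MS windows than either Sham MS library did, but it also occupied more windows of any kind. Of all windows tested it occupied 63.5%, Sham LS replicate 2 47.1%, and the Sham MS libraries 50.1% and 47.3%. Leans in Sham are not free of this difference in coverage, so the near-even lean does not decide whether FT MS windows carried over. In the reverse direction, Sham MS windows leaned to MS in FT in 248 cases and to LS in 76, and Sham LS windows leaned to LS in FT in 736 cases and to MS in 301.

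**Figure D2:**
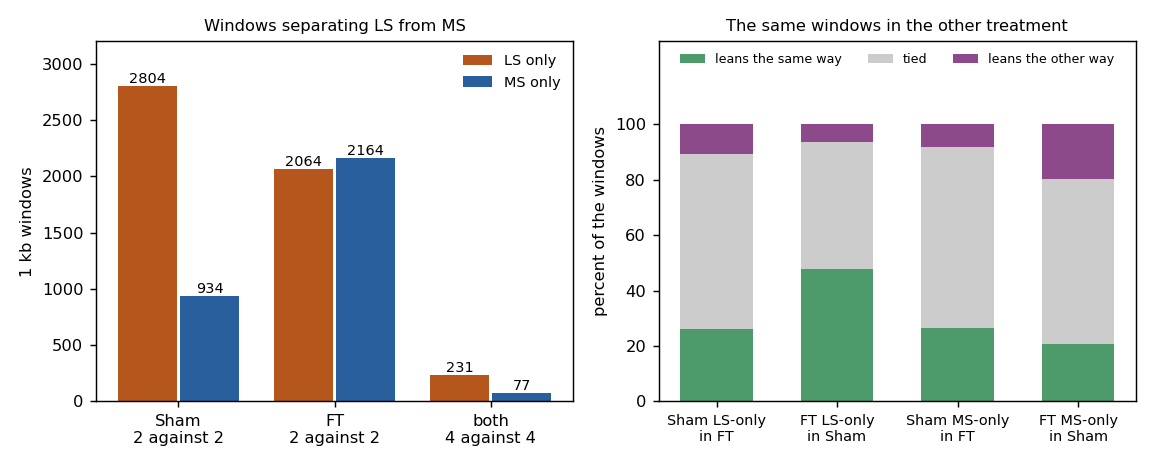
Left, numbers of 1 kb windows occupied in every LS and no MS library (orange) or in every MS and no LS library (blue), within Sham, within FT and over both. Right, the percent of the windows separating the regions in one treatment that leaned the same way, were tied or leaned the other way in the other treatment; FT MS windows are the set in which the same way (20.7%) and the other way (19.5%) are close.

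Joined where they adjoined, the 231 LS windows formed 202 loci and the 77 MS windows 70 loci. Most were a single window: 174 of the LS and 63 of the MS loci. They lay low in the lists, with a median over loci of the mean rank of 19597 in LS and 19832 in MS, where rank 1 is the peak with the highest maxScore, the top score of the peak caller's filter within a peak. Absence from the other region's lists depended on how far down those lists were read. On equal-size lists 137 of 202 LS loci were untouched by any MS peak and 53 of 70 MS loci by any LS peak, whereas on full lists this held for 5 LS loci and 0 MS loci.

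The longest LS locus, chr20:49988001-49991000, spanned 3 windows. Peaks covered 2500 bp of it in Sham LS replicate 1, 2200 bp in Sham LS replicate 2, and 2500 and 2700 bp in the FT LS libraries, at ranks of 6061, 6951, 6254 and 13260. No MS library had a base covered on equal-size lists, and on full lists both FT MS libraries did, with 1900 and 2100 bp. Both Sham MS libraries remained at 0, but their full lists (27508 and 27292 peaks) are hardly longer than the cut ones (26223). All 3 windows were also occupied in every library of the arcuate nucleus (arc) and in 6 of the 86 libraries outside the septum in all.

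The other 7 LS loci named by length had 2 windows each. They were chr8:128069001-128071000, chr16:787001-789000, chr5:65051001-65053000, chr2:9391001-9393000, chr3:170903001-170905000, chr6:146581001-146583000 and chr2:147112001-147114000. Over the 8 loci the LS libraries covered 1300 to 2700 bp at ranks of 6061 to 24909, and 7 of the 8 had no MS base covered on equal-size lists. On full lists both FT MS libraries had peaks at all 8 loci, with 798 to 2100 bp. The Sham MS libraries, whose full lists are short, had peaks at 1. That locus, on chromosome 8, had 900 and 600 bp covered in Sham MS, below the 50% that counts as occupied. The locus at chr2:9391001-9393000 was occupied outside the septum in the 3 arc libraries alone.

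In the MS direction the 7 loci of 2 windows were chr4:211100001-211102000, chr5:156578001-156580000, chr3:59134001-59136000, chr5:63652001-63654000, chr6:104595001-104597000, chr19:48091001-48093000 and chr3:11639001-11641000. The first had 1500 and 1600 bp covered in Sham MS and 2000 and 1904 bp in FT MS. No LS library covered it on equal-size lists, and on full lists the FT LS libraries did, with 1800 and 1460 bp. On full lists both FT LS libraries had peaks at all 8 named MS loci, and at least 1 Sham LS library at 6. These 8 include the locus described next. Sham LS replicate 1 covered 1600 bp at chr5:156578001-156580000 and 1100 bp at chr3:59134001-59136000. Outside the septum 5 of the 7 loci of 2 windows were occupied in 44 to 75 of the 86 libraries, with chr4:211100001-211102000 in 73. The other two were chr6:104595001-104597000, occupied in 16 libraries, and chr3:11639001-11641000, occupied in 6.

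The MS locus that came next, chr10:58068001-58069000, was of another kind. It is 1 window at the edge of a peak present in all 8 libraries at ranks of 411 to 1328. The peaks reached 417, 279, 480 and 393 bp into the window in LS and 594, 678, 581 and 571 bp in MS, so the MS libraries were above 50% and the LS libraries below it. The groups did not overlap, but the window records a shifted peak edge and not a peak found in one region alone.

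Rank was compared at the sites that both regions share. Peaks of the 8 equal-size lists joined into 41689 elements, and 16282 of them (39.1%) were covered in all 8 libraries. For each, the log2 of the best rank was fitted with limma on region and treatment, so that a difference of 1 is a doubling of the rank and a negative difference, LS minus MS, is a better rank in LS. At an adjusted p under 0.05, 132 elements (0.811% of those tested) ranked better in LS and 58 (0.356%) ranked better in MS, 190 in all (1.17%). The median difference was 1.07 in size for the LS elements, a 2.10-fold change of rank, and 0.99 for the MS elements.

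Over the 132 LS elements the median rank lay between 4470 and 4763 in the 4 LS libraries and between 9411 and 11142 in the 4 MS libraries. Over the 58 MS elements it lay between 4084 and 4847 in the MS libraries and between 8477 and 10034 in the LS libraries. These medians describe elements chosen for their difference in the same libraries. Of the 190 elements, 170 had no overlap between the 4 LS and the 4 MS ranks. Over all shared elements, all 4 LS ranks were better than all 4 MS ranks in 656 (4.03%), and the reverse held in 854 (5.25%). The larger number in LS among the called elements is therefore not matched by a larger number of non-overlapping ones.

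The count of called elements was sensitive to the fit. On ranks taken as a percent of the list and not on a log2 scale, limma called 0 elements, with 2813 at an unadjusted p under 0.05 against 2915 in the log2 fit. Without Sham LS replicate 2 the log2 fit called 609 elements. It called 82 without Sham LS replicate 1, 37 without Sham MS replicate 2, 34 and 28 without FT LS replicates 1 and 2, and 8 and 19 without FT MS replicates 1 and 2. Without the 3 short lists, on lists cut to 43341 peaks, 741 of 31679 shared elements were called, 485 better in LS and 256 better in MS. Since Sham LS replicate 1 is then the only Sham library, the treatment term takes it up, and the region difference of that fit rests on the 4 FT libraries. Of the 190 elements, 190 had the same direction there and 112 were called, in libraries that had also served to choose them.

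The largest difference was at chr17:8462602-8465601, among the best peaks of the septum. It ranked 46, 25, 25 and 29 in LS (Sham replicates 1 and 2, then FT replicates 1 and 2, an order kept below) and 106, 363, 114 and 80 in MS. All 4 LS ranks were better than the best MS rank, a log2 difference of -2.18 ± 0.42 (SE, limma, adjusted p = 0.0196). Over 16 other fits its difference lay between -2.53 and -1.75, and it was called in 9 of them. Outside the septum it ranked best in the prelimbic cortex (PLC), at a geometric mean of 22.2 over its libraries, and in the infralimbic cortex (ILC), at 24.5.

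The element at chr8:98268845-98271444 ranked 813, 1132, 732 and 692 in LS and 2469, 5759, 3765 and 2217 in MS. The difference was -2.0 ± 0.29 (SE, limma, adjusted p = 0.00421) and was alike in Sham (-1.97) and FT (-2.02). It was called in 14 of 16 other fits. Its best region outside the septum was the PVN (the paraventricular nucleus of the thalamus), at a geometric mean rank of 102, followed by the dorsomedial thalamus (MDT) at 3272, and in no library of the accumbens core did it come into the list.

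The next LS element, chr3:117031247-117034299, ranked 2888, 5082, 3096 and 3104 in LS and 11192, 8291, 15548 and 14983 in MS. Its difference was -1.81 ± 0.25 (SE, limma, adjusted p = 0.00353), larger in FT (-2.30) than in Sham (-1.33), and was called in 14 of 15 other fits. The accumbens shell was its best region elsewhere, at 3254. The element at chr3:99166847-99170060 ranked 312, 1308, 1148 and 792 in LS and 1780, 3286, 4368 and 2151 in MS, with its best rank elsewhere in the dorsal dentate gyrus (dorDG, 526). The last of the 5 LS elements, chr17:18745302-18747901, ranked 2040, 1401, 1631 and 1776 in LS and 4843, 6337, 5014 and 5567 in MS. It had the smallest spread of the 5, with a difference of -1.67 ± 0.23 (SE, limma, adjusted p = 0.00353), and its best rank elsewhere was in arc (755).

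In the MS direction, chr13:31012409-31015313 ranked 383, 656, 414 and 842 in LS and 246, 124, 230 and 153 in MS. The difference was 1.59 ± 0.34 (SE, limma, adjusted p = 0.0314), and LH ranked it still better, at a geometric mean of 86.8. The element at chr3:2668948-2671560 ranked 218, 311, 207 and 355 in LS and 79, 104, 70 and 132 in MS, and ranked best elsewhere in the bed nucleus of the stria terminalis (BNST, 44.5). It was the least stable of the 10, called in 5 of 16 other fits.

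At chr1:220417089-220419665 the ranks were 4038, 3154, 4433 and 3511 in LS and 1938, 909, 1074 and 1834 in MS. Elsewhere it ranked best in the nucleus of the solitary tract (Snt, 134) and in the raphe (316). The element chr2:143594102-143596608 ranked 2279, 2391, 1501 and 1858 in LS and 764, 890, 690 and 610 in MS, with LH at 665. No MS rank was worse than 890 and no LS rank better than 1501, a difference of 1.43 ± 0.25 (SE, limma, adjusted p = 0.0123). The last, chr14:92351746-92354298, ranked 6918, 9951, 6322 and 6677 in LS and 2411, 4225, 1967 and 3008 in MS, with BNST best elsewhere at 2060. In the 10 named elements no LS rank fell among the MS ranks, which the naming rule required.

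**Figure D3:**
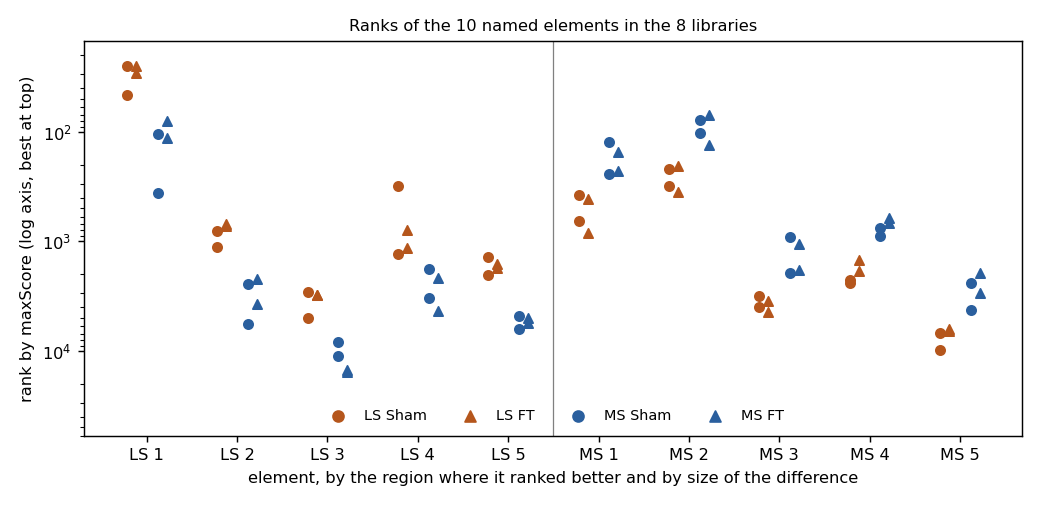
Rank by maxScore (log axis, rank 1 the best, best at top) of the 10 named elements in the 8 libraries, LS in orange and MS in blue, circles for Sham and triangles for FT. LS 1 to LS 5 are the elements better in LS and MS 1 to MS 5 those better in MS, in order of the size of the difference; in each the orange and blue points do not overlap.

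Whether the regional difference was the same in Sham and in FT was tested by a region by treatment term. It was called in 0 of 16282 elements by limma (921 at an unadjusted p under 0.05). The median SE of this term was 0.447, against 0.225 for the region term, so 0 calls do not show that the difference was the same. The contrast of 2 libraries against 2 within a treatment called 6 elements in Sham and 1 in FT by limma, with 2242 and 1705 at an unadjusted p under 0.05. Both contrasts came from a fit of all 8 libraries, and their median SE was 0.316. The spread in that fit pools the Sham and the FT pairs, so the count in FT also depends on the Sham libraries. The Sham and FT differences share no library, and over the 16282 elements they correlated at a Pearson r of 0.35, a value across elements, which are not independent replicates.

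Elements that differed in one treatment leaned the same way in the other. Of 320 elements better in LS by at least 1 log2 unit in FT, 245 (76.6%) had the same sign in Sham, and of 173 better in MS in FT, 140 (80.9%) did. From Sham to FT the shares were 285 of 333 (85.6%) for LS and 231 of 282 (81.9%) for MS. Over all shared elements the sign was the same in 61.1%. The size shrank in the other treatment: the 320 FT elements better in LS had a median difference of -0.39 in Sham, and the 173 better in MS had 0.36. Only 51 elements in the LS and 17 in the MS direction passed 1 log2 unit in both treatments, while 2 passed it in opposite directions, better in MS in Sham and better in LS in FT.

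**Figure D4:**
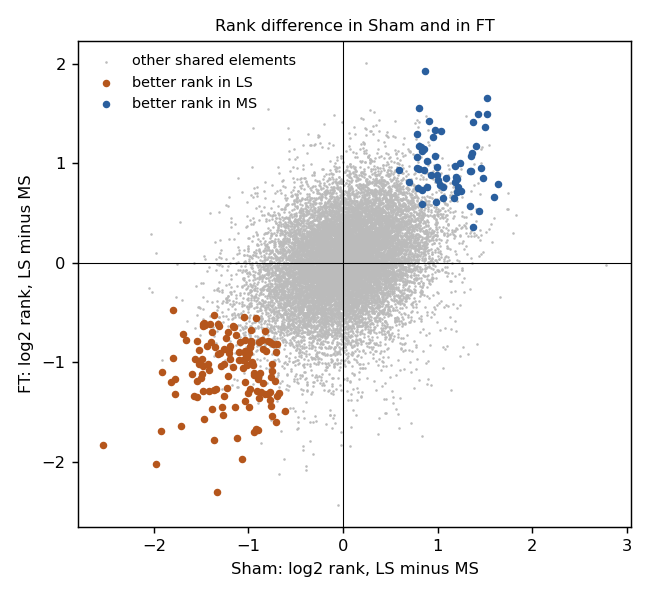
Difference in log2 rank, LS minus MS, in the Sham libraries (x axis) and in the FT libraries (y axis) for the 16282 elements covered in all 8 lists. Orange points are the 132 elements called better in LS and blue points the 58 called better in MS; since they were called on both treatments together, their place in 2 corners follows from the call, while the tilt of the grey cloud is the correlation of 0.35.

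Covered width, the bases of a shared element under peaks, was fitted in the same way and gave no called element (0%) by limma. At an unadjusted p under 0.05 there were 528 elements, 497 wider in LS and 31 wider in MS. This direction turned by limma without Sham LS replicate 1, with 271 wider in LS and 1151 wider in MS. Within FT, 26 were wider in LS and 55 in MS. Without the 3 short lists the median log2 width difference, LS minus MS, was -0.03, against 0.04 in the main fit. All 4 LS widths exceeded all 4 MS widths in 17 elements, and the reverse held in 2. The treatment term of the same fit called 10200 elements, all wider in FT, and without the 3 short lists it called 0 of 31679 by limma (5594 at an unadjusted p under 0.05, with the lone Sham library taken to vary like the others). The width differences of Sham and FT correlated at 0.15 over elements. Among the 132 elements that ranked better in LS, 126 were also wider in LS, with a median log2 width difference of 0.22. Among the 58 that ranked better in MS, 13 were wider in LS, with a median of -0.06, against 68.5% wider in LS and a median of 0.04 over all shared elements. Width and rank come from the same peaks, so the widths are a description.

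The elements that differed in rank were spread over the genome and over the ranks. They lay on all 21 chromosomes of the lists, with 22 on chromosome 2 as the highest number and 2 on chromosome X. Their median length was 2600 bp in the LS and 2480 bp in the MS direction, against 2332 bp over all shared elements. By mean rank over the 8 libraries, 12.1% of the LS elements and 13.8% of the MS elements were within the best 2000, against 11.9% of all shared elements. Beyond rank 10000 the shares were 29.5%, 29.3% and 40.3%.

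The other 23 regions, whose libraries had no part in choosing the windows or the elements, set the 2 directions apart. The MS windows were occupied more often than the LS windows in 22 of the 23 regions. LH occupied 66.2% of the MS windows against 11.8% of the LS windows (mean of 4 libraries). VMH occupied 64.6% against 10.2%, the raphe 65.6% against 15.9%, Snt 65.6% against 14.0%, and the ventral tegmental area (VTA) 63.0% against 14.3%. ILC was the exception, with 25% of the MS and 30.0% of the LS windows, and arc occupied 53.7% and 50.2%. LS windows were also found in fewer places: the median LS window was occupied in 12 of the 86 other libraries and 6 of the 23 regions, the median MS window in 31 libraries and 13 regions, and the median of all windows tested in 45 libraries and 18 regions. In no other library were 10 of the 231 LS windows (4.33%) and 0 of the 77 MS windows found, against 4.89% of all windows tested. The 2 sets of windows passed unlike filters. An MS window had to be occupied in both short Sham MS lists and absent from the short list of Sham LS replicate 2. For an LS window the reverse was required. How far this sets their breadth apart was not tested, and the windows were not chosen anew without the short lists.

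The called elements were followed by rank in the same libraries. An element without a peak in a list took a rank of 26224, also in the geometric means given above. In Snt the median rank of the LS elements was 22117 (mean of 4 libraries), near that value. In each library the median log2 rank of the 58 MS elements was subtracted from that of the 132 LS elements, so that a positive value is a better rank for the MS elements. The difference was above 0 in every library of 11 regions and below 0 in every library of 7. It was highest in Snt (mean 2.73, from 2.43 to 3.11), the raphe (2.16, from 1.89 to 2.45), LH (2.15, from 1.92 to 2.30) and VTA (1.99, from 1.73 to 2.18). At the other end were arc (-1.26, from -1.61 to -1.04), PLC (-1.14, from -1.42 to -0.96) and ILC (-0.84, from -1.04 to -0.66). The order was not that of the windows: the centromedial amygdala (CMA) and the periaqueductal grey (PAG) occupied 41.6% and 40.9% of the MS windows against 20.5% and 20.3% of the LS windows, yet lay at -0.23 and -0.19 by rank, below 0 in every library. In PAG the median ranks were 17674 for the LS and 20183 for the MS elements, nearer to the rank given to absent elements than in CMA (10013 and 11713). That leaves less room for a difference in PAG. The 4 LS libraries lay between -1.16 and -0.92 and the 4 MS libraries between 1.01 and 1.45, values that the choice of the elements fixes.

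Snt, the raphe, LH and VTA thus lay on the side of the MS, and arc, PLC and ILC on the side of the LS. The accumbens parts fell apart in this measure, with 1.18 in the core and 0.13 in the shell, and so did the amygdala, with 0.57 in its basolateral part (BLA) and -0.23 in CMA. These are descriptions, and no test was made. Of the 86 libraries, 4 had lists shorter than 26223 peaks (FT NaCshell replicate 1, Sham PLC replicate 2, Sham ILC replicate 2 and Sham MPOA replicate 2) and entered whole. Sham replicate 1 of the habenula (HB) stood further apart, since it occupied 0.298% of the windows occupied in all 8 septal libraries, 1.3% of the LS windows and 0% of the MS windows. Without it the MS windows were still the more often occupied in 22 of 23 regions, and the regions above 0 by rank in every library numbered 12, with HB resting on 1 library.

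**Figure D5:**
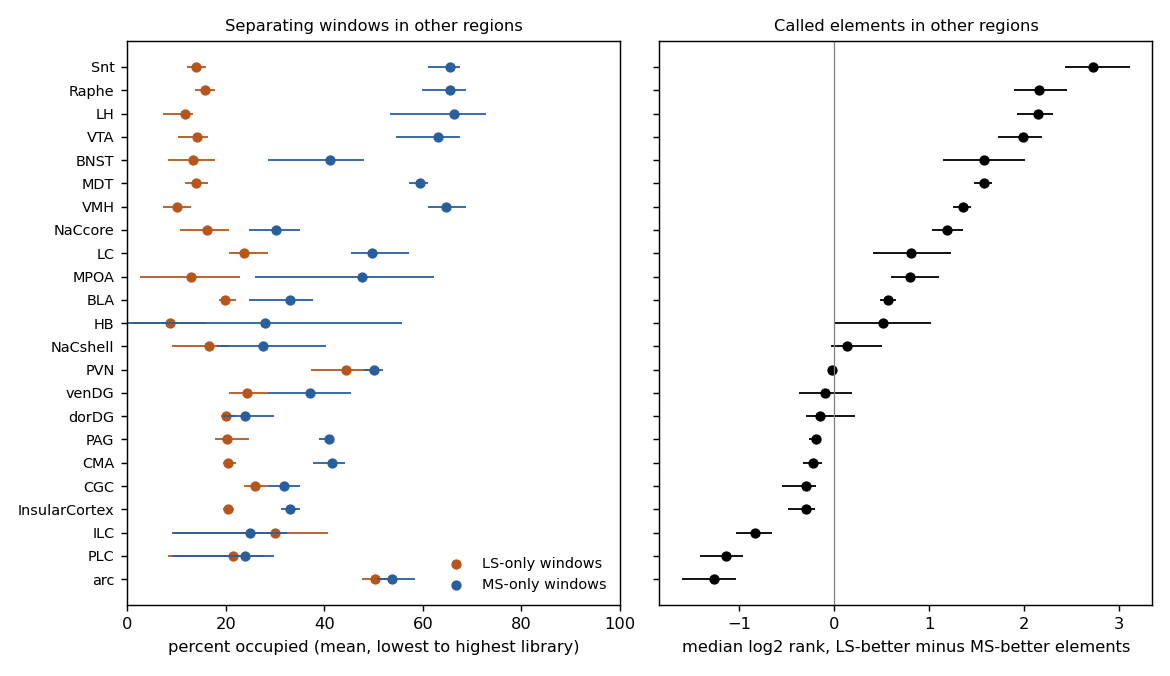
Left, the percent of the LS windows (orange) and of the MS windows (blue) occupied in each of the 23 other regions, with points for the mean and lines from the lowest to the highest library. Right, the median log2 rank of the elements called better in LS minus that of the elements called better in MS, with the same lines; regions are ordered by this value, from arc at -1.26 to Snt at 2.73.

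How far apart LS and MS are was set against other pairs of regions. With the lists of the 84 libraries of 21 regions cut to 19378 peaks, the 4 of 4 against 0 of 4 rule gave 275 windows for LS with MS, 185 in LS and 90 in MS, or 0.461% of those occupied. This was the second lowest of 210 pairs, after 88 for ILC with PLC, and the median pair had 5458. Other neighbouring pairs had more, with 1116 for NaCcore with NaCshell, 2251 for BLA with CMA and 2482 for dorDG with venDG, the dorsal and ventral dentate gyrus. The 4 against 4 count falls where libraries of 1 region differ among themselves, as the Sham LS pair did. Within FT alone, a comparison chosen after the data were seen and in which no septal list was short, LS with MS had the lowest count of the 210 pairs, 4003 windows (1939 in LS and 2064 in MS, lists cut to 24429 peaks), against 4078 for ILC with PLC and a median of 17261. As a share of the windows tested these were 6.238% and 6.230%, so the place of these pairs depends on the scale. No test was made over the pairs, which share regions.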

How the data were processed

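H3K27ac ChIP-seq peak lists of 4 LS and 4 MS libraries were compared. The authors aligned reads to Rn5 (BWA is named in the submitters' processing notes, its version is not given in the sources used here) and called peaks on each library with DFilter. The maxScore and the normalised tag count were deposited as scores, whose scale depends on the library. The authors' −log10 p-value ran from 4 to 200 in these lists, and the percent of false discoveries that the authors deposited for each peak was 0 throughout. Depth is unknown, so no counting interval was computed. Starts were read as counting from 0 and are printed counting from 1.

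Lists were ranked by maxScore (ties by −log10 p, then position) and cut to the shortest of the 8. A 1 kb window was occupied when peaks covered at least 50% of it. Single values were compared by exact permutation, Jaccard indices by the exact test over splits. Log2 best rank and covered width of shared elements were fitted with limma 3.58.1 (R 4.3.3, mean-variance trend, region and treatment as terms) with Benjamini-Hochberg adjustment at 0.05, checked on simulated ranks. Named loci were the 8 longest joined loci per direction, ties by better mean rank. Named elements were the 5 largest differences per direction among called elements with no overlap between the groups, for rank and for width, and width gave none. Libraries, windows and naming rule were chosen with earlier results of these data known. For the other regions, 1019 peaks of 2 lists outside chromosomes 1 to 20 and X were left out. The 4 input libraries entered no comparison.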

Additional observations from a re-analysis of the deposited data

Results flagged for a closer look

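In 28 groups of 4 libraries (LS or MS, in 4 measures per library and 10 named elements) the distance of the extreme library from the others was checked, and 5 stood apart by Dixon's criterion at 95%, where chance alone gives about 1 in 20. Sham LS replicate 2 stood apart from the other LS libraries in its list length of 26223 peaks (the next had 43341) and in its median peak width of 1400 bp (the next had 1900 bp). The same library ranked chr3:117031247-117034299, an element better in LS, at 5082, where the nearest other LS library had 3104. It ranked chr14:92351746-92354298, an element better in MS, at 9951, where the nearest LS library had 6918. Sham MS replicate 2 ranked chr17:8462602-8465601 at 363, where the nearest other MS library had 114. What sets these libraries apart was not tested.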

How the results depend on the processing

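Leaving out 1 library at a time gave -0.0323 to 0.26 for the log2 width difference, -0.0207 to 0.20 for windows per library, -0.16 to 0.69 for peaks of at least 3 kb, 0.01 to 0.34 for list length, -0.00505 to 0.0234 for the Jaccard difference, 266 to 838 LS and 92 to 224 MS windows, 8 to 609 elements called by rank and 0 to 1 by width. The LS and MS window counts were 136 and 27 on full lists, 371 and 140 with any overlap, 461 and 141 with 500 bp windows, 3 and 0 with 5 kb windows, and 46 and 8 with absence judged on full lists. They were 120 and 101 with 10000 peaks, 139 and 99 at a −log10 p of at least 10, 155 and 110 at equal covered length, and 128 and 68 by peak centre, so the LS to MS ratio fell to 1.19, 1.40, 1.41 and 1.88, and 7, 7, 27 and 89 of the 231 LS windows were among them. Elements called by rank numbered 69 with region alone, 6 within Sham, 1 within FT, 0 on percent ranks, 110 with 10000 peaks and 525 by tag count. Elements called by width numbered 3 within Sham and 1 within FT. For rank and width, these contrasts within a treatment took their spread from all 8 libraries. The Jaccard difference turned to -0.00755 on full lists and -0.0177 with 5 kb windows, and at equal covered length the windows per library turned to -0.00144. With the 5 long lists, chosen after the data were seen, the values were 1348 LS and 2507 MS windows, 741 elements by rank, and log2 differences of -0.101 (width), -0.0621 (windows), -0.289 (peaks of at least 3 kb) and -0.0451 (list length). Those long lists include no Sham MS library, so their log2 differences mix region with treatment. With the replicate block, 191 elements were called by rank (166 of the 190 among them) and 0 by width. The Jaccard difference, all same-region pairs against the like-numbered LS with MS pairs of a treatment alone, was -0.0331 without a test. That sign is not like for like, since the same-region pairs include pairs across treatments. Within a treatment same-region pairs had a mean index of 0.680, against 0.662 for the like-numbered LS with MS pairs. For the 4 measures per library the block was a sign-flip test over the like-numbered pairs. Its smallest possible p is 0.125, so it could not pass 0.05 and decides nothing. LS and MS libraries of a treatment share animals, but which numbers share a pool is not stated (correlation of like-numbered deviations in rank 0.0987 in Sham and 0.0857 in FT, in width 0.0588 and 0.0123). Of 152 alternatives, 96 were counted as the same, 40 as moved and 16 as turned in direction. A count was the same within 1.5 times the main count. A difference was the same when it kept its direction and its side of 0.05, which none of the main tests had passed. Within a treatment a difference was the same when it lay within the spread. The causes were not tested. Depth is unknown, and peaks below a list's threshold were not seen, so absence means absence from a list.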
